A study of Mus musculus with 383 samples.

Results

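Vagal motor nuclei with reads of Th were set against nuclei in which no Th read was found. Th encodes tyrosine hydroxylase. Of the 383 nuclei in the deposited table, 265 were eligible: each had at least 500000 reads, at least 1000 genes with a read, at least 1 read of Chat or Slc5a7 and at least 1 read of Tbx20. Of these, 105 were Th-positive, with Th at 5 CPM or more (counts scaled to 1000000 reads per nucleus), and 147 were Th-negative, with 0 Th reads. The other 13 had Th reads below 5 CPM and belong to neither group. The groups were thus selected on measured reads of Th, Tbx20, Chat and Slc5a7, whose levels below are a description and support nothing.

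The nuclei were taken from Chat-IRES-Cre males (C57Bl6/j background, 12 weeks old) by dissecting the dorsal motor nucleus of the vagus, and these are mice in which Cre is made under the choline acetyltransferase locus. The mice received 100 nL of the Cre-dependent virus AAV9-DIO-H2b-mCherry at 10 weeks, and 16 days later tissue was dissected and pooled, and single nuclei positive for mCherry and the dye NucBlue were sorted into wells for Smart-seq2. Both groups share this genotype and virus, and no untreated control was part of the design. The number of animals is not given and no label ties a nucleus to an animal, so the series is 1 sample. No hypothesis test was run, and no p-value or standard error is given. SDs and intervals below are over nuclei or cover counting error, and they do not cover variation between animals. Only cells that took up the virus and made Cre could be labelled. The labels' account of the dissection also names sections around the SCN.

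Tyrosine hydroxylase makes L-DOPA from tyrosine and is the rate-limiting enzyme of catecholamine synthesis. Aromatic amino acid decarboxylase, encoded by Ddc, turns L-DOPA into dopamine, dopamine beta-hydroxylase (Dbh) makes noradrenaline from it, and Pnmt makes adrenaline. The vesicular monoamine transporter Slc18a2 loads these amines into vesicles, and Slc6a3 and Slc6a2 take up dopamine and noradrenaline from outside the cell. Preganglionic neurons of the vagal motor nucleus use acetylcholine, and a subset of them is known to contain tyrosine hydroxylase. Noradrenergic neurons that also contain it lie close by in the nucleus of the solitary tract.

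The sequences before the start sites of Th and Ddc, which encode successive enzymes, of Npffr1, with the widest positive difference, and of Chrnb4, with the widest negative difference among the genes on the lists used below, are shown first. Each is the 250 bases upstream of an annotated start, 5′ to 3′ on the gene's strand, from RefSeq, build GRCm38.p6. Th lies on the minus strand (chr7:142899996-142900245), as do Ddc with an upstream (chr11:11898145-11898394) and a downstream start (chr11:11890409-11890658) and Chrnb4 (chr9:55048545-55048794). Npffr1 lies on the plus strand (chr10:61595045-61595294). The RefSeq starts of Th, Npffr1 and Chrnb4 are not those of the GENCODE gene spans given with the values below. Capitals mark matches on either strand to any of 5 motifs: the cyclic AMP response element TGACGTCA, the NBRE AAAGGTCA bound by nuclear receptors of the Nr4a family, the TATA box TATAAA, the GC box GGGCGG and the homeodomain motif TAATTA.
Th: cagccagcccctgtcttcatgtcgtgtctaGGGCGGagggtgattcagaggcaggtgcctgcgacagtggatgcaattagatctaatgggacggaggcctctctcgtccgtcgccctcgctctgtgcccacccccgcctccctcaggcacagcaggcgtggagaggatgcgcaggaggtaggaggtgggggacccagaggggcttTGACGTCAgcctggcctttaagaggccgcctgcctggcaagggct
Ddc, upstream start: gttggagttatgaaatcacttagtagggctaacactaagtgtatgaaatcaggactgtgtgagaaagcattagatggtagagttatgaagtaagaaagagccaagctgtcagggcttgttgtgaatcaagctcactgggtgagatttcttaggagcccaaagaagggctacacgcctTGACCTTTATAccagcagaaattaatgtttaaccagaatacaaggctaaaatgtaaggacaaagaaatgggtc
Ddc, downstream start: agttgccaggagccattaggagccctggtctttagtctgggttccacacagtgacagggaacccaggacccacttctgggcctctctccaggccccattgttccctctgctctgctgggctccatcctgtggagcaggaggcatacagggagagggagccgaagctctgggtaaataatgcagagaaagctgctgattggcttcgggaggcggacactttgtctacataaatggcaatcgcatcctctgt
Npffr1: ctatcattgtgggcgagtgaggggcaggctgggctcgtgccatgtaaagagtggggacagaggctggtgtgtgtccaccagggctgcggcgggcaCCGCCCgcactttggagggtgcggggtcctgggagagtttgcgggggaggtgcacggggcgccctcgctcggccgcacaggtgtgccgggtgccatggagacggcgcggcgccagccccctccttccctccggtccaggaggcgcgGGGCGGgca
Chrnb4: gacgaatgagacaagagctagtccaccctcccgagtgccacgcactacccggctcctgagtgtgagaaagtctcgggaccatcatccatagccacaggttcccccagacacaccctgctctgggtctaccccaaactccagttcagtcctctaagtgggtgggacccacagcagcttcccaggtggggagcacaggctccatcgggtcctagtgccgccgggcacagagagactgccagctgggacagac

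The Th sequence held the cyclic AMP response element 45 to 38 bases before the start, and a GC box 220 to 215 bases before it. The upstream Ddc sequence held an NBRE 73 to 66 bases before the start and, overlapping it, a TATA match at 68 to 63. Both matches lay on the opposite strand. Npffr1 held 2 GC boxes, while the downstream Ddc sequence and the Chrnb4 sequence held no match. Among 32851 promoter sequences of the same length, 1.55% held the response element, 1.34% the NBRE, 12.4% the TATA box, 32.7% the GC box and 4.84% the homeodomain motif. These matches describe letters only. Of the 30 genes named below for the size of their difference, 22 had a sequence in the promoter table.

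The limit of 5 CPM was set by the rule, and Th values ran on across it without a clear gap. Th (GRCm38, chromosome 7, 142892752 to 142931128, minus strand, protein coding) ranged from 5.55 CPM to 547 CPM in Th-positive nuclei, with a median of 81.3 and quartiles of 30.3 and 194. The nuclei just inside the limit of 5 CPM had 5.55, 7.11 and 8.93 CPM, and those just outside had 4.03, 3.65 and 3.40 CPM. The 13 nuclei below the limit carried 1 to 6 Th reads each. Th-positive nuclei made up 39.6% of eligible nuclei (95% Clopper-Pearson interval 33.7 to 45.8). By blocks of 96 nucleus numbers, the only order the labels give, the shares were 40% (28 of 70), 44.1% (30 of 68), 36.5% (23 of 63) and 37.5% (24 of 64), and the median Th level of positive nuclei was 103, 75.8, 96.2 and 72.0 CPM. The intervals of these shares overlapped.

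**Figure D1:**
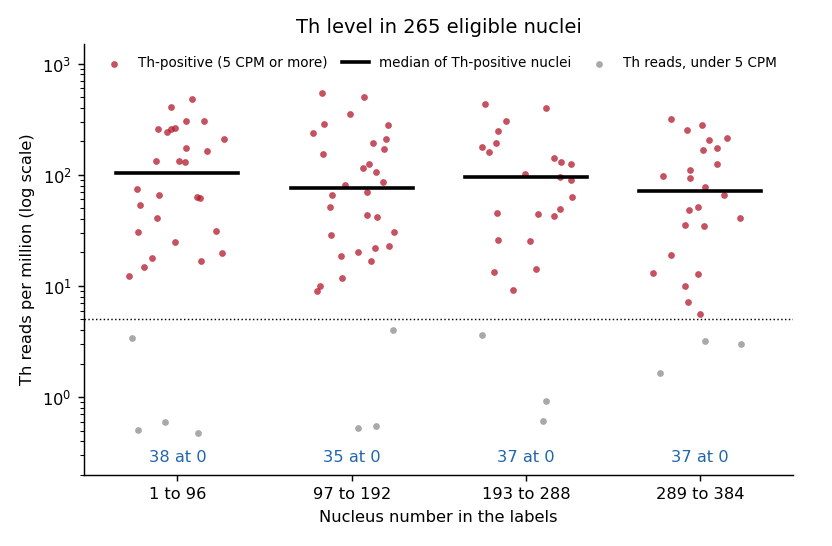
Th level of each eligible nucleus with a Th read, in CPM on a log axis, by block of nucleus numbers from the labels (x). Red points are Th-positive nuclei with their median as a black bar, grey points are nuclei under 5 CPM (dotted line), and the blue counts give the Th-negative nuclei; each block holds 23 to 30 positive and 35 to 38 negative nuclei.

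The groups were alike in depth. Th-positive nuclei had a median of 1439229 reads (532391 to 4699420) and Th-negative nuclei 1481982 (555586 to 4545281). To compare nuclei at 1 depth, each was thinned at random to 500000 reads, where 1 read equals 2 CPM. At that depth Th-positive nuclei had a median of 10531 genes with a read and Th-negative nuclei 10113. The median share of mitochondrial reads was 0.101% and 0.0773%. The part of these differences in the gene results was not tested, other than by the comparison within bins of genes detected given in the closing section.

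Over all genes, more were higher than lower in Th-positive nuclei. A gene was compared where it had a read in at least 10% of the nuclei of both groups together, which held for 17341 genes. Of these, 148 (0.853%) were higher by at least 1 in mean log2(CPM + 1), a measure that takes in both how often and how strongly a gene was read, and 57 (0.329%) were lower by at least 1, together 1.18%. The median difference over the compared genes was 0.051, the 5th percentile -0.42 and the 95th 0.56. Only 15 genes were higher, and 3 lower, by at least 2. Th is left out of all these counts.

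**Figure D2:**
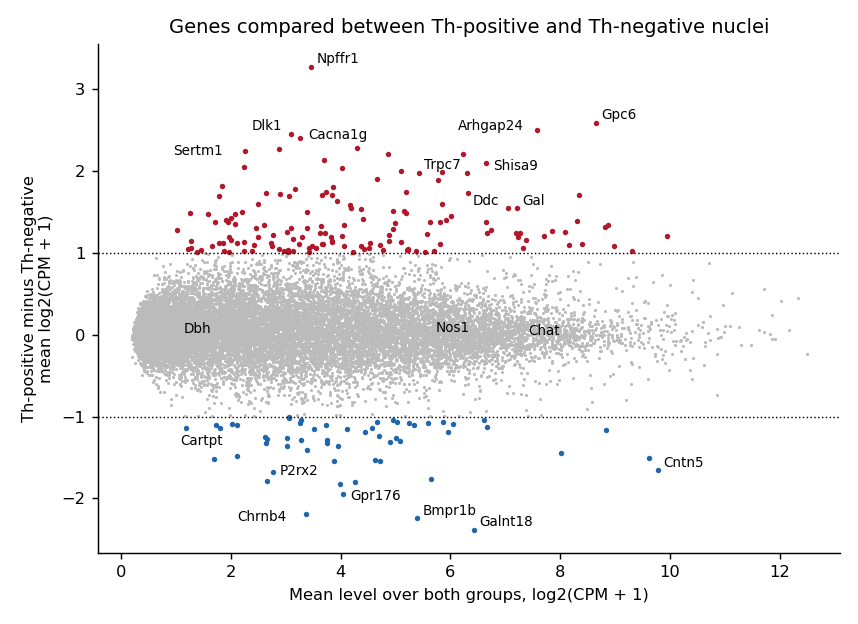
Difference in mean log2(CPM + 1), Th-positive minus Th-negative (y), against the mean of both groups (x) for 17341 genes, with the limit of 1 in either direction dotted. The 148 red genes are led by Npffr1 and the 57 blue genes by Galnt18, while Chat, Nos1 and Dbh lie near 0.

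Over all nuclei, Chat, Slc18a3 and Slc5a7 had like mean levels in both groups. Chat, the acetylcholine-synthesising enzyme, had a lowest, median and highest level of 8, 182 and 750 CPM in Th-positive nuclei and 0, 200 and 628 CPM in Th-negative nuclei, and its mean log2(CPM + 1) was 7.30 ± 1.10 and 7.34 ± 1.59 (SD, n = 105 and 147 nuclei), a difference of -0.046. The same difference, always Th-positive minus Th-negative, was -0.072 for Slc18a3, the vesicular acetylcholine transporter inside the Chat gene, and -0.0033 for Slc5a7, the choline transporter. By block of nucleus numbers, that of Slc5a7 ran from -1.05 in the first to 0.47 in the second, and that of Slc18a3 from -0.78 to 0.43. In nuclei without an Npy2r read, Slc5a7 and Slc18a3 differed by -0.83 and -0.73, and in those with one by 0.16 and 0.079. Chat, Slc5a7 and Tbx20 took part in choosing the nuclei. Tbx20, a T-box factor that marks visceral motor neurons, was higher by 1.19 in Th-positive nuclei, with a median of 252 against 142 CPM. Since the rule required these reads, they do not check the label. Isl1, a factor of developing motor neurons that the rule did not use, was found in 35.2% and 26.5%. Of 11 cholinergic genes compared, 1 was higher by at least 1 on the log2 scale: Bche, butyrylcholinesterase, by 1.03. None was lower by that much, beside 0.853% higher and 0.329% lower of all compared genes.

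Markers of other cell types were summed per nucleus, and the part of these levels in the gene results was not tested. The summed level of 12 noradrenergic and adrenergic markers without Th had a median of 718 CPM (116 to 1830) in Th-positive and 570 CPM (60 to 2120) in Th-negative nuclei. Most nuclei of both groups held Ddc and Slc18a2, while Pnmt was found in 1 of 105 (0.952%) and 5 of 147 (3.40%) nuclei. The medians for 10 dopaminergic markers were 724 (36 to 1820) and 484 CPM (0 to 1546), with En1 and Foxa2 at 0 of 105 Th-positive nuclei, which allows a share of up to 2.86%. Ddc and Slc18a2 stand on both of these lists. The median was 0 in both groups for glutamatergic (up to 274 and 576 CPM), serotonergic (up to 130 and 168) and oligodendrocyte precursor markers (up to 42 and 76). The median summed level was 338 and 384 CPM for somatic motor markers, with Calca at 0 in Th-positive nuclei, 22 and 4 CPM for inhibitory, 90 and 66 for oligodendrocyte, 22 and 24 for astrocyte, 48 and 46 for microglia, 6 and 4 for vascular and 28 and 12 for ependymal markers. Of the noradrenergic and dopaminergic markers, 8 of each compared, Ddc was the 1 gene past the limit of 1. Of all compared genes, 1.18% passed it.

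Of the catecholamine genes, Ddc was higher where Th was present, while no other synthesis or transport gene passed the limit. Ddc (chromosome 11, 11814101 to 11898144) was found in 103 of 105 (98.1%, 93.3 to 99.8) Th-positive nuclei and 133 of 147 (90.5%, 84.5 to 94.7) Th-negative nuclei. In CPM, its lowest, median and highest level was 0, 292 and 886 CPM in Th-positive nuclei and 0, 120 and 668 CPM in Th-negative nuclei. Its groups overlapped widely, and its mean log2(CPM + 1) was 7.83 ± 1.60 and 6.29 ± 2.52, a difference of 1.54. The gene 1700042O10Rik, which overlaps Ddc on the other strand, differed by 0.21. Slc18a2 was higher by 0.92, just under the limit of 1, with medians of 184 and 92 CPM, and it was found in 90.5% and 85.0% of nuclei. Ddc and Slc18a2 were found together in 94 of 105 (89.5%, 82.0 to 94.7) Th-positive and 114 of 147 (77.6%, 69.9 to 84.0) Th-negative nuclei, so most nuclei without a Th read still had reads of both.

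Dbh reads were found in a minority of both groups. Dbh (chromosome 2, 27165233 to 27183200) was found in 23 of 105 (21.9%, 14.4 to 31.0) and 29 of 147 (19.7%, 13.6 to 27.1) nuclei, with a median of 0 CPM in both groups and a highest value of 274 and 912 CPM. The difference was -0.024. Without thinning, the Dbh shares were 25.7% and 20.4%. Dbh and the noradrenaline transporter Slc6a2 were found together in 4 of 105 (3.81%, 1.05 to 9.47) and 1 of 147 (0.680%, 0.0172 to 3.73) nuclei. The dopamine transporter Slc6a3 was found in 24.8% and 25.2%, with a highest value of 70 and 138 CPM. Gch1, which makes the tetrahydrobiopterin cofactor that tyrosine hydroxylase needs, was found in 58.1% and 57.1%, a difference of -0.17. Qdpr and Spr, which also serve this cofactor, differed by 0.42 and 0.37.

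**Figure D3:**
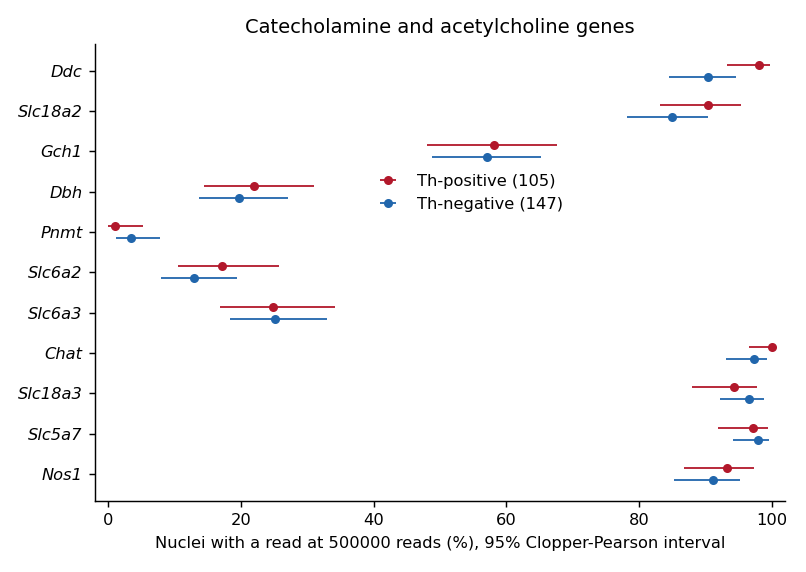
Share of nuclei with at least 1 read at 500000 reads (x, percent) for catecholamine and acetylcholine genes and Nos1 (y), in 105 Th-positive (red) and 147 Th-negative (blue) nuclei. Bars are 95% Clopper-Pearson intervals, which cover counting error only; they overlap for each gene shown, also for Ddc, which was found in 98.1% and 90.5%.

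Monoamine breakdown and receptor genes did not pass the limit in either direction. Of 8 breakdown genes compared, the widest difference was that of Maob, monoamine oxidase B, at 0.73. Of 7 dopamine and adrenergic receptors compared, Adra1a was highest at 0.67 and Adra2a lowest at -0.42. Drd2, the receptor that also serves as a dopamine autoreceptor, was found in 15.2% and 20.4%. Among 19 transcription factors known from catecholamine neurons, Nr4a2 was higher by 1.03 and Pbx3 lower by 1.19. Over all compared genes, 0.853% were higher and 0.329% lower by at least 1. Nr4a2, a nuclear receptor needed by midbrain dopamine neurons, was found in 99 of 105 (94.3%, 88.0 to 97.9) and 120 of 147 (81.6%, 74.4 to 87.5) nuclei, with medians of 80 and 60 CPM. Its difference was under the limit in 5 of 21 alternatives, among them 0.98 with TMM factors and 0.26 in nuclei with Npy2r reads, and that of Pbx3 in 3, among them -0.54 in nuclei without. Pitx3, Lmx1a and Phox2a were found in 17.1%, 38.1% and 20% of Th-positive and 5.44%, 29.3% and 22.4% of Th-negative nuclei.

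The gene with the widest difference was Npffr1, a receptor for RFamide peptides such as neuropeptide FF (chromosome 10, 61595492 to 61628565). It was found in 92 of 105 (87.6%, 79.8 to 93.2) Th-positive and 57 of 147 (38.8%, 30.9 to 47.2) Th-negative nuclei, and without thinning in 88.6% and 44.2%. In CPM, its lowest, median and highest level was 0, 50 and 352 CPM in Th-positive nuclei and 0, 0 and 332 CPM in Th-negative nuclei. Its summed reads were 75.0 CPM (72.7 to 77.4) and 17.6 CPM (16.6 to 18.5), with exact Poisson 95% intervals, a ratio of 4.27. The ranges overlapped, although most of one group and a minority of the other had a read. The mean log2(CPM + 1) was 5.10 ± 2.38 and 1.83 ± 2.53, a difference of 3.27. Of nuclei of both groups with an Npffr1 read, 61.7% (53.4 to 69.6) were Th-positive, beside 41.7% for a gene read in every nucleus. Gm28447, which overlaps Npffr1 on the other strand, differed by 0.38. Npff, which encodes a ligand of this receptor, was found in 10.5% and 8.84% of nuclei.

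Cacna1g, the T-type calcium channel Cav3.1 (chromosome 11, 94408391 to 94474198), was found in 87 of 105 (82.9%, 74.3 to 89.5) and 66 of 147 (44.9%, 36.7 to 53.3) nuclei, and its lowest, median and highest level was 0, 36 and 224 CPM in Th-positive nuclei and 0, 0 and 148 CPM in Th-negative nuclei. The T-type relative Cacna1i was also higher, in 53.3% against 23.1%, by 1.47, whereas the remaining T-type gene, Cacna1h, differed by 0.34. Kcnk13, a tandem-pore potassium channel, had medians of 132 and 22 CPM and was higher by 2.20. Trpc7, a cation channel, had medians of 156 and 42 CPM and was higher by 1.98. These were the 4 of 93 compared ion channels past the limit, none being lower, beside 0.853% higher and 0.329% lower of all compared genes, with a list median of 0.17 beside 0.051 over all compared genes.

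Gpc6, a glypican heparan sulfate proteoglycan (chromosome 14, 116925315 to 117976544), was read in nearly all nuclei, and its lowest, median and highest level was 4, 1394 and 5646 CPM in Th-positive nuclei and 0, 214 and 5724 CPM in Th-negative nuclei, a difference of 2.59. Dlk1, a delta-like transmembrane protein from an imprinted locus (chromosome 12, 109452823 to 109463336), was found in 80 of 105 (76.2%, 66.9 to 84.0) and 56 of 147 (38.1%, 30.2 to 46.5) nuclei, with medians of 36 and 0 CPM and a difference of 2.45. Pcdh10, a protocadherin, was found in 83.8% against 52.4% and Dchs2, an atypical cadherin, in 89.5% against 68.0%. Gpc6 thus differed in how many reads each nucleus held. Dlk1 differed in how many nuclei held reads and also in how many reads those nuclei held. Its summed reads were 64.7 and 19.8 CPM, a ratio of 3.26 that exceeds the ratio of its shares. Adamts18, a secreted metalloprotease, was found in 74.3% and 36.7%.

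Arhgap24, which acts on small GTPases (chromosome 5, 102481391 to 102897937), had medians of 516 and 114 CPM and was higher by 2.49. The gene 1700013M08Rik, which lies within its span on the other strand, was higher as well, by 1.48, and as the use of strand in counting is not given, which of the pair a read came from is uncertain. Rgs6, a regulator of G protein signalling, was higher by 2.20, and Shisa9, an auxiliary protein of AMPA receptors, by 2.10, being found in 105 of 105 (100%) and 120 of 147 (81.6%) nuclei. Cbln1, a secreted synaptic organiser, was found in 63.8% and 27.9% and was higher by 2.04; Gm2694, which overlaps it on the other strand, was higher by 1.70. Hlf, a transcription factor with a basic leucine zipper, Ush1c, the scaffold protein harmonin, and Sertm1, a small transmembrane protein, were higher by 2.03, 2.00 and 2.24. Npffr1, Cacna1g and Dlk1 were found together in 60 of 105 (57.1%, 47.1 to 66.8) Th-positive and 9 of 147 (6.12%, 2.84 to 11.3) Th-negative nuclei.

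**Figure D4:**
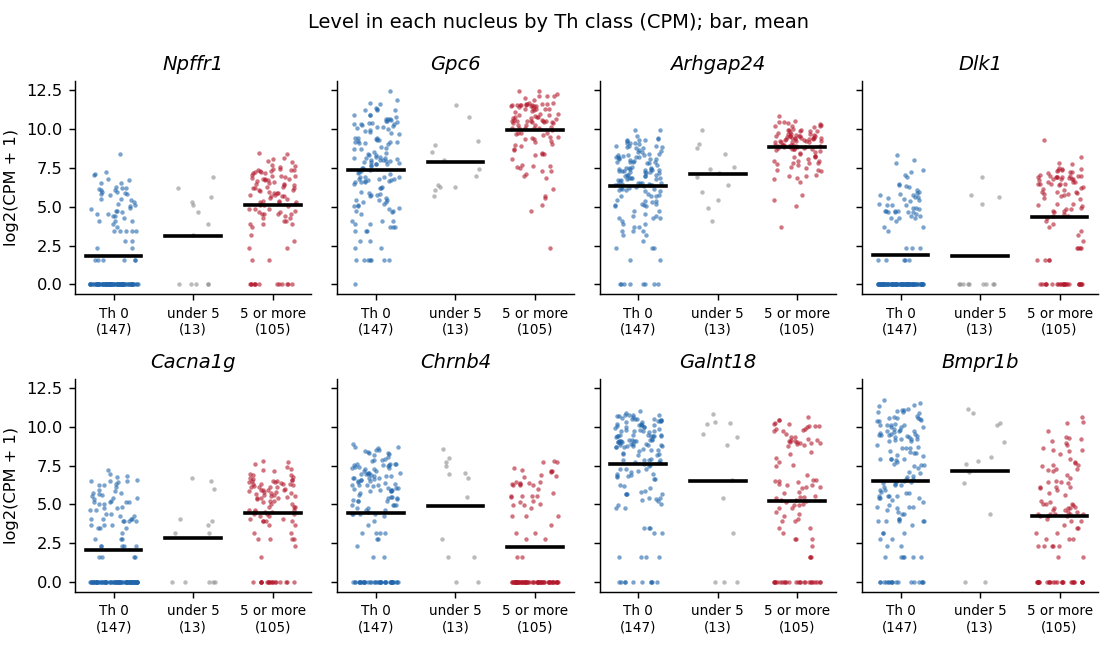
Level of 8 genes in each nucleus, as log2(CPM + 1) at 500000 reads (y), for Th-negative nuclei (blue), nuclei with Th reads under 5 CPM (grey) and Th-positive nuclei (red), with n under each and the mean as a bar. The means of Npffr1 are 1.83, 3.14 and 5.10, those of Chrnb4 4.46, 4.92 and 2.26, and every gene has nuclei of both groups over much of its range.

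In the other direction, the nicotinic receptor gene Chrnb4 was read in fewer Th-positive nuclei. It encodes a subunit of ganglionic-type nicotinic receptors (chromosome 9, 55028154 to 55048779) and was found in 43 of 105 (41.0%, 31.5 to 51.0) Th-positive and 106 of 147 (72.1%, 64.1 to 79.2) Th-negative nuclei, or 43.8% and 76.2% without thinning. In CPM, its lowest, median and highest level was 0, 0 and 220 CPM in Th-positive nuclei and 0, 44 and 486 CPM in Th-negative nuclei. The median nucleus thus had no read in one group and 44 CPM in the other, and the difference was -2.19. Its neighbours on chromosome 9 were lower too: Chrna3 by 1.10 and Chrna5 by 0.82, the latter short of the limit. Chrna3, Chrna5 and Chrnb4 were found together in 29 of 105 (27.6%, 19.3 to 37.2) and 79 of 147 (53.7%, 45.3 to 62.0) nuclei. Chrna4, the subunit of brain-type receptors, went the other way, in 54.3% against 32.0%, a difference of 1.16, while its usual partner Chrnb2 was found in 96.2% and 93.9%.

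Other receptor genes were lower along with Chrnb4. P2rx2, an ATP-gated channel, was found in 42 of 105 (40%, 30.6 to 50.0) and 94 of 147 (63.9%, 55.6 to 71.7) nuclei and differed by -1.67. The muscarinic receptor gene Chrm2, the serotonin receptor gene Htr2a and the mu opioid receptor gene Oprm1 differed by -1.15, -1.36 and -1.36, with medians of 4 against 18, 0 against 22 and 16 against 50 CPM. By block their differences ran from -2.18 to -0.065, from -2.88 to -0.52 and from -1.48 to -1.19. They were past the limit in 17, 18 and 19 of 21 alternatives. Hrh1, a histamine receptor gene, was higher by 1.21. Of 35 compared receptors for acetylcholine, serotonin, histamine and purines, 2 were higher (Chrna4 and Hrh1) and 5 lower (Chrna3, Chrnb4, Chrm2, Htr2a and P2rx2), beside 0.853% higher and 0.329% lower of all compared genes, and the list median was 0.13, with 19 members above 0.

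The widest negative difference was that of Galnt18, an enzyme that starts O-linked glycosylation (chromosome 7, 111471661 to 111779977). Here its lowest, median and highest level was 0, 44 and 1566 CPM in Th-positive nuclei and 0, 428 and 2062 CPM in Th-negative nuclei, a difference of -2.38. Bmpr1b, a receptor for bone morphogenetic proteins, had 0, 20 and 1598 CPM and 0, 132 and 3454 CPM in the same order, a difference of -2.24. Both genes had high values in some Th-positive nuclei, and the groups overlapped widely. Gpr176, an orphan receptor, was found in 62.9% and 88.4% and differed by -1.95. The adhesion and guidance genes Ephb1, Cntn3 and Cntn5 differed by -1.83, -1.80 and -1.66, although Cntn5 was read in every nucleus of both groups, with medians of 426 and 2528 CPM. Car10, a carbonic anhydrase-related protein, Tagln2, an actin-binding protein, Syt10, a synaptotagmin, Fign, a microtubule-severing enzyme, and the transcription factor gene Onecut2 differed by -1.76, -1.79, -1.54, -1.54 and -1.53. Pip5kl1 and Mgat4c, the last of the 15 named, differed by -1.52 and -1.51.

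The size of these differences varied between blocks of nucleus numbers. All 30 genes named for size kept 1 sign across the 4 blocks, as the rule for naming them required. Npffr1 differed by 2.72, 3.82, 2.91 and 3.66 in the blocks, and Chrnb4 by -2.22, -2.37, -1.71 and -2.50. Cntn3 varied most towards 0, with -0.29 in the first block and -3.04 in the third. Of the genes past the limit, 138 of 148 higher and 54 of 57 lower genes had 1 sign in all blocks, against 15.5% of all compared genes. Since every block entered the choice of these genes, their shared sign is no separate evidence, and the labels do not say what a block is. Cntn3, Cntn5, Dchs2, Ephb1, Gpr176, Pcdh10, Pip5kl1 and Rgs6, besides the genes for which it is given above, overlap other annotated genes, with which they may share reads. Outside the 30 genes, Chrm2, Nos1, Oprm1, Pbx3, Pde5a, Penk and Slc18a2 do so too, as do Hoxa5 and Hoxb5, described below.

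**Figure D5:**
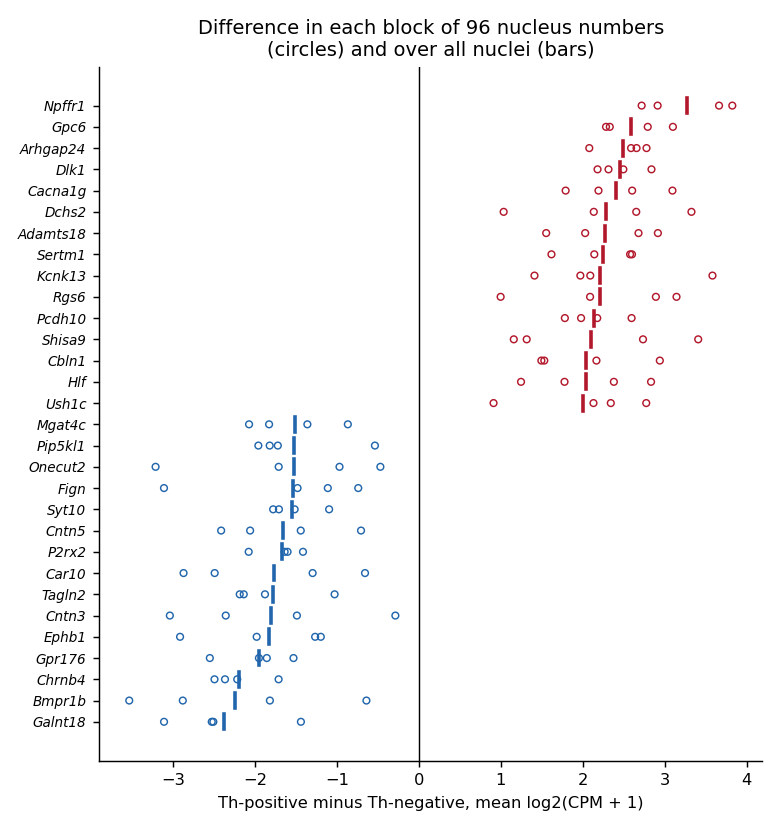
Difference in mean log2(CPM + 1), Th-positive minus Th-negative (x), for the 30 genes named for size (y), in each block of 96 nucleus numbers (4 open circles) and over all nuclei (bar). All circles of the 15 higher genes (red) lie right of 0 and those of the 15 lower genes (blue) left of it, a sign that the naming rule required; Cntn3 comes nearest to 0 at -0.29.

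Hox genes lay on the positive side in these nuclei. All 12 compared Hox genes had a difference above 0, from 0.19 to 1.74, with a median of 0.60 beside 0.051 over all compared genes, and 3 (none lower) passed the limit, beside 0.853% higher and 0.329% lower of all compared genes. Hox genes, which set position along the head-to-tail axis, lie in clusters, and neighbours can share reads. Hoxb5 was found in 90 of 105 (85.7%, 77.5 to 91.8) and 89 of 147 (60.5%, 52.2 to 68.5) nuclei, with medians of 38 and 8 CPM, but its antisense gene Hoxb5os overlaps it. Hoxc4 was found in 96.2% and 82.3%, and Hoxa5, which overlaps annotated spans of Hoxa3 and Hoxaas3, in 58.1% and 36.7%. Their differences were 1.74, 1.28 and 1.31. The lowest level of the summed 22 Hox genes was 14 CPM in Th-positive and 0 CPM in Th-negative nuclei, the medians were 188 and 108 CPM and the highest 986 and 788.

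Of the neuropeptide and granin genes, 4 of 30 compared were higher and 1 lower, beside 0.853% higher and 0.329% lower of all compared genes, with a median difference of 0.21. Gal, which encodes galanin, was found in 103 of 105 (98.1%, 93.3 to 99.8) and 129 of 147 (87.8%, 81.3 to 92.6) nuclei, with medians of 336 and 174 CPM and a difference of 1.54. Cbln2 was higher by 1.33, beside Cbln1. Pdyn, the prodynorphin gene, was rare but differed in how many nuclei held it: 25 of 105 (23.8%, 16.0 to 33.1) against 9 of 147 (6.12%, 2.84 to 11.3). Of nuclei of both groups with Pdyn reads, 73.5% (55.6 to 87.1) were Th-positive, beside 41.7% for a gene read in every nucleus. By block the Pdyn difference ran from 0.20 to 2.26. Cartpt, the CART peptide gene, was the lower one, in 27 of 105 (25.7%, 17.7 to 35.2) and 63 of 147 (42.9%, 34.7 to 51.3) nuclei, a difference of -1.14.

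The remaining peptide genes that mark groups of vagal motor neurons did not pass the limit or were too rare to be compared. Penk was found in 22.9% and 13.6%, Vip in 14.3% and 5.44%, and Nppb in 19.0% and 21.8% of nuclei. Cck was found in 4 of 105 (3.81%, 1.05 to 9.47) and 15 of 147 (10.2%, 5.82 to 16.3) nuclei, Sst in 4.76% and 10.2%, and Grp in 9.52% and 9.52%. The calretinin gene Calb2 was found in 38.1% of both groups, Nos1, neuronal nitric oxide synthase, in 93.3% and 91.2%, and the injury-related gene Atf3 in 20% and 19.0%. The intervals of the groups overlapped for each of these genes.

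Of the peptide receptors, 3 of 49 compared were higher and 1 lower, beside 0.853% higher and 0.329% lower of all compared genes, with a median difference of 0.17. Npy2r, whose product binds the peptides NPY and PYY, was found in 75 of 105 (71.4%, 61.8 to 79.8) and 74 of 147 (50.3%, 42.0 to 58.7) nuclei, with medians of 84 and 2 CPM. Cckar, the cholecystokinin A receptor gene, was found in 50 of 105 (47.6%, 37.8 to 57.6) and 33 of 147 (22.4%, 16.0 to 30.1), but the median was 0 CPM in both groups, the highest value was in a Th-negative nucleus (672 against 336 CPM), and the difference in the first block was 0.23 against 1.48 over all. Npy4r, the receptor for pancreatic polypeptide, was higher by 1.12, and Oprm1 was the lower gene. Npffr1 was not on this list.

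Of the receptor genes for GABA, glycine and glutamate, 4 of 43 compared were higher and 0 lower, beside 0.853% higher and 0.329% lower of all compared genes, with a median difference of 0.18. Grin2a, an NMDA receptor subunit gene, had medians of 1012 and 308 CPM. Grik3, a kainate receptor subunit gene, was found in 54.3% and 38.1%. Gria3, an AMPA receptor subunit gene, was higher by 1.19 in mean log2(CPM + 1), yet its summed reads were 122 and 125 CPM, so more Th-positive nuclei held it without a larger total. Gad1, Gad2 and Slc32a1, which make and load GABA, were found in 11.4%, 18.1% and 1.90% of Th-positive and 8.84%, 23.1% and 1.36% of Th-negative nuclei.

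In each of the other lists 1 gene or none passed in either direction, beside 0.853% higher and 0.329% lower of all compared genes. Of 17 nitric oxide and calcium-binding genes, Necab1 was higher by 1.03 and Pde5a, which breaks down cyclic GMP, lower by 1.29. By block the Pde5a difference ran from -2.21 to -0.20, and it was past the limit in 16 of 21 alternatives. None of 15 immediate early genes passed, with a median of 0.20. Gal was the 1 of 13 axon injury genes past the limit, and its list median was 0.023. Some genes stand on more than 1 list, as Gal, Ddc and Nr4a1 do.

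The contrast was also described within nuclei that had an Npy2r read and within those that had none, since Npy2r itself differed. Of the 30 genes named for size, 28 had the same sign in both classes and 17 passed the limit in both. The 30 genes were chosen by their difference over these same nuclei, so a shared sign is no separate evidence. Npffr1 differed by 3.60 among 75 positive and 74 negative nuclei with Npy2r reads and by 2.35 among 30 and 73 without. Gpc6 differed by 2.65 and 2.25, Arhgap24 by 2.50 and 1.90, and Ddc by 1.14 and 1.56. Slc18a2 turned direction, at 1.43 and -0.44. Some genes had smaller or no differences in the nuclei without Npy2r reads. Cacna1g differed by 3.41 and 0.62, Chrnb4 by -3.33 and -0.77, Syt10 by -3.69 and 0.15, and Tagln2 by -3.08 and 0.037. Others differed more in the nuclei without Npy2r reads. Hlf differed by 1.02 and 2.92, Ush1c by 1.06 and 2.14, Fign by -0.45 and -1.34, and Pip5kl1 by -1.09 and -2.14. Whether the 2 classes differ was not tested.

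The nuclei with few Th reads are too few for more than a description. In the 13 nuclei with Th reads under 5 CPM, the mean log2(CPM + 1) of 25 of the 30 genes lay nearer to the Th-negative than to the Th-positive mean, and that of 15 lay between both means. Dlk1 was 1.81, beside 1.87 and 4.33, and Galnt18 6.50, beside 7.63 and 5.25. Among the 105 Th-positive nuclei, Spearman's rho between the thinned Th level and that of each of the 30 genes ranged from -0.37 for Bmpr1b to 0.39 for Gpc6. These nuclei share their pooled tissue and their depth after thinning, and such weak correlations in sparse reads are given as a description only.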

How the data were processed

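The authors deposited whole-number read counts per gene and nucleus, not normalised. Per the submitters' processing notes the build was GRCm38, and bcl2fastq, STAR, Picard, edgeR and Seurat version 3 were named without roles. Annotation, counting mode and use of strand are not given in the sources used here. Smart-seq2 with 22 cycles of amplification has no molecular identifiers, so intervals cover counting error only.

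From the deposited counts, each eligible nucleus was thinned to 500000 reads without replacement (Python 3.11.15, NumPy 2.4.6, SciPy 1.17.1), and Th-positive and Th-negative nuclei were compared by mean log2(CPM + 1) in genes with a read in at least 10% of nuclei. The limit was a difference of 1. No test was run, because the labels name no animal. The script recovered known changes in simulated data, where strong changes were planted in often-read genes only. That simulation did not cover changes near the limit or genes read in few nuclei. Scaling with edgeR 4.0.16 and DESeq2 1.42.0 factors (R 4.3.3) served as alternatives.

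Always named were Th, catecholamine and acetylcholine genes, Tbx20, Nr4a2, Nos1, Atf3, Calb2 and group-marking peptide and receptor genes. To these were added the 15 genes with the widest difference in each direction and 1 sign in all blocks of 96 nucleus numbers, without predicted genes, and the 30 listed genes with the widest differences past the limit. The other listed genes past the limit, Bche, Chrna3, Necab1 and Npy4r, and members given for contrast were added after their values were seen. Some members are not reported here. Members and lists were chosen with earlier results of these data known. Of 29779 gene names, 28340 matched GENCODE M21, which gave coordinates.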

Additional observations from a re-analysis of the deposited data

Results flagged for a closer look

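The 118 nuclei that were not eligible took no part in the comparison, and 12 of them (10.2%) had Th at 5 CPM or more. Groups of these nuclei were flagged where the share passed the limit that a count of 0 would allow. That limit amounts to 3 nuclei, so any higher count passes it, and it is no test against a background. Among 29 nuclei with enough reads and a cholinergic gene but no Tbx20 read, 7 (24.1%, 95% interval 10.3 to 43.5) had Th at 5 CPM or more, against a limit of 10.3% that the interval includes. Of the 6 of these nuclei with a Dbh read, 5 had Th at that level, and of the 23 without a Dbh read, 2 did. Among the 88 nuclei below the read minimum, 4 (4.55%, 1.25 to 11.2) reached 5 CPM, against a limit of 3.41% that the interval includes. Below 200000 reads a single Th read passes 5 CPM, so the level does not mean the same there. These 4 nuclei had 48990 to 284091 reads and 4 to 69 Th reads. No control nuclei were part of the design to set a background, and the difference from the eligible nuclei was not tested.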

How the results depend on the processing

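The counts of 148 higher and 57 lower genes stayed within 1.5 times under 13 of 19 alternatives. They were 36 and 13 with log2(CPM + 10), which shrinks low genes, and 24 and 5 by a difference of 25 points in the share of nuclei. Lower genes were 86 with Th at 20 CPM or more, 90 without nucleus numbers 1 to 96 and 95 without 97 to 192. Without nuclei with Dbh or Slc6a2 reads (61 and 92 left) the counts were 261 and 129. Of the reported genes, 116 and 45 were still past the limit there, and 137 and 52 were with another random draw of reads. Within bins of genes detected the counts were 131 and 75. In alternatives added after seeing the data, they were 267 and 144 in nuclei with Npy2r reads and 402 and 320 in nuclei without, where groups were smaller. Of the 56 named genes past the limit, 54 kept their sign under every alternative on the log2 scale, but only 16 stayed past the limit under each. The number past it was 29 with log2(CPM + 10), 45 of 55 in nuclei with Npy2r reads, 30 of 55 in those without, and 51 or more otherwise. Syt10 (0.15) and Tagln2 (0.037) reversed in nuclei without Npy2r reads, and the cause was not tested. No nucleus of either group had over 10% mitochondrial reads, so that filter left out none and could change neither count. Asking for a read in at least 25% of nuclei, or in none, changed which genes were compared, but no gene's difference. At this depth a gene found in 0 nuclei of a group could be in up to 2.86% of Th-positive and 2.04% of Th-negative nuclei, and shares closer than their intervals could not be told apart.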

Other observations

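Genes outside the lists also passed the limit, and those given here were chosen after their values were seen. Prokr1, a prokineticin receptor gene, was found in 47.6% against 18.4% of nuclei, a difference of 1.69. Ptger4, a prostaglandin E receptor gene, was found in 86.7% against 69.4% of nuclei, a difference of 1.63. Lpar1, a lysophosphatidic acid receptor gene, was found in 56.2% against 30.6% of nuclei, a difference of 1.40.

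Igtp was found in 68.6% against 50.3% of nuclei, a difference of 1.50, Gbp3 in 54.3% against 32.0% of nuclei, a difference of 1.13, and Herc6 in 88.6% against 78.2% of nuclei, a difference of 1.00. In the second block of nucleus numbers the differences of Igtp and Gbp3 were -0.061 and -0.89, and in the first 2.32 and 2.30. Slit1, a secreted ligand, was higher, in 85.7% against 59.2% of nuclei, a difference of 1.71, and Robo1, a receptor for such ligands, lower, in 73.3% against 87.1% of nuclei, a difference of -1.14.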
